A study of Mus musculus with 25 samples.

Results

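Inward rectifier potassium channels were followed in left ventricular tissue of 25 mice through 7 genes of the Kcnj family, namely Kcnj14, Kcnj2, Kcnj12, Kcnj3, Kcnj5, Kcnj8 and Kcnj11. The 7 were selected from the 15 Kcnj genes of the annotation with earlier results of these data in view, after Kcnj14 had come first by p-value among all genes between the diets. All 7 were among the 11983 genes that entered the tests, with a mean of at least 1 scaled TPM. TPM, the abundance of a transcript among all transcripts of its library, is a level per unit of transcript length, so it can be set side by side between genes, and it was scaled here to a common median between libraries. Kcnj14 passed that limit only through the mice on the high-fat diet, since no control mouse reached 1.

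The mice were male littermates, wild-type (WT) or heterozygous for the antioxidant enzyme glutathione peroxidase 4 (GPx4+/-), on a C57BL6/J background. They were 8 to 10 weeks old at the start of a 16-week diet, which was either normal chow (CNTL) or high fat and high sucrose (HFHS). There were 5 mice in each of 5 groups: WT CNTL, WT HFHS, GPx4+/- CNTL, GPx4+/- HFHS, and WT HFHS + Carnosine, in which the drinking water held the dipeptide carnosine at 80 mM from week 7 on. The GPx4+/- allele is carried by every cell, and all animals were fasted and given a bolus of dextrose or saline before death. Which mouse received which was not given in the sources used here. GPx4+/- HFHS mice on carnosine were not analysed here.

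Inward rectifiers are potassium channels of 4 subunits that pass current into the cell more easily than out of it. The Kir2 genes are Kcnj2, Kcnj12, Kcnj4 and Kcnj14. In ventricular myocytes Kir2 channels, chiefly of Kcnj2 and Kcnj12, carry the background current that holds the resting potential and ends the action potential. The Kir3 channels (Kcnj3 and Kcnj5) open when the beta-gamma subunits of a G protein are freed by muscarinic or adenosine receptors, and together form the acetylcholine-activated channel best known from atrial and nodal cells. The Kir6 subunits (Kcnj8 and Kcnj11) are joined by a sulfonylurea receptor to form the channel that ATP closes, which ties the membrane potential to the energy state of the cell.

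The family resemblance is plainest in the stretch of coding sequence for the pore, where a short run of codons forms the potassium selectivity filter. The stretches below run from 30 bases before to 30 bases after that run in the leading transcript of 6 of the genes (GENCODE M21, GRCm38, coding strand, 5′ to 3′), with the 12 bases that match ATNGGNTNNGGN in capitals. They are shown because they mark what the genes share and where reads from them can still be told apart.
Kcnj14: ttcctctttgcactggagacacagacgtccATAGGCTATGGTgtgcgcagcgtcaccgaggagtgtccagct
Kcnj2: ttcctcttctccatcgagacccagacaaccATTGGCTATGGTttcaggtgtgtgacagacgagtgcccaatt
Kcnj3: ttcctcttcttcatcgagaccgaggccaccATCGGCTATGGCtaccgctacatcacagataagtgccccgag
Kcnj5: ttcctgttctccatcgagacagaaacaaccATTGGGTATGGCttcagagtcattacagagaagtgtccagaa
Kcnj8: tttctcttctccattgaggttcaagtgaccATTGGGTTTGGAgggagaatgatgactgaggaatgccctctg
Kcnj11: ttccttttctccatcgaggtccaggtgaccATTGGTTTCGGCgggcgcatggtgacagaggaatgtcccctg

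The motif, sought in frame on the coding strand, was present in all 15 Kcnj genes of the annotation, against 2.68% of the 21901 coding genes searched. Of the 72 bases shown, Kcnj14 shared 51 with Kcnj2 and 41 with Kcnj8. Over the whole coding sequence Kcnj14 was 64.2% identical to Kcnj12 and 61.7% to Kcnj2, while Kcnj2 and Kcnj12 were 70.7% identical to each other and Kcnj8 and Kcnj11 67.2%. Among the members outside its subfamily, the only such genes compared, Kcnj14 was closest to Kcnj5, at 57.1%, and least close to Kcnj3, at 52.4%.

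Reads were assigned to transcripts by runs of bases they share, so runs of 31 bases, the default length of that method, were compared. None was shared between any 2 members, and Kcnj12 shared 2 with Kcnj4. Kcnj14 had another partner. Of its 2685 runs of 31 bases, 955 (35.57%) were also found in Gm5522, a processed pseudogene on chromosome 1 (chr1:10805281-10806522, plus strand, GRCm38), singled out after its values were seen. Gm5522 was listed at 0 in all 25 mice, so all of the signal was assigned to Kcnj14. Reads from the shared part cannot be told apart by sequence.

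The genes lie on 5 chromosomes, and none overlaps another gene of the table. Kcnj14 (ENSMUSG00000058743.6) spans chr7:45816460-45824782 on the minus strand, and Kcnj11 lies 269 kb away at chr7:46093953-46100764, also on the minus strand. Both Kir6 genes sit beside a sulfonylurea receptor gene on the same strand. Kcnj11 lies 3.76 kb from Abcc8, and Kcnj8 (chr6:142564837-142571614, minus strand) 16.2 kb from Abcc9. Kcnj3 is at chr2:55435970-55598145 on the plus strand, Kcnj5 at chr9:32314707-32344350 on the minus strand, Kcnj12 at chr11:61022564-61071131 on the plus strand and Kcnj2 at chr11:111066164-111076821 on the plus strand.

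The libraries were those of ventricular muscle. The 7 ventricular myocyte markers were present in every mouse, with Myl2 at 10400 to 15200 scaled TPM. The targeted gene followed the labels, Gpx4 being 590 to 777 scaled TPM in WT mice and 250 to 382 in GPx4+/- mice. Between 31.3% and 48.7% of TPM came from mitochondrial transcripts. In 5 mice the summed level of 5 atrial myocyte markers (Sln, Myl7, Myl4, Bmp10 and Dkk3) lay between 550 and 3090 scaled TPM, against 1.70 to 200 in the other 20. These were WT HFHS + Carnosine replicate 2, GPx4+/- HFHS replicate 4, WT CNTL replicate 3 and GPx4+/- CNTL replicates 1 and 2. In GPx4+/- CNTL replicate 2 the sum of 4 hepatocyte markers also reached 990 scaled TPM, against at most 66.9 elsewhere. In whole tissue, fewer cells of a type and less RNA per cell cannot be told apart.

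Kcnj11, the ATP-sensitive pore subunit Kir6.2 of heart muscle, was the most abundant member, at 79.8 ± 5.96 scaled TPM (SD, n = 25). It exceeded Kcnj5, the next in order, in 25 of 25 mice, with a median ratio of 3.13. Kcnj5 and Kcnj3 followed at 27.4 ± 5.93 and 26.1 ± 8.29, and their order was not fixed, Kcnj5 being higher in 17 of 25 mice. Kcnj3 exceeded Kcnj8 (20.7 ± 1.94) in 20 of 25 mice, though in only 3 of 5 in each CNTL group. From there on the order held in every mouse, from Kcnj8 to Kcnj12 (14.9 ± 1.61), Kcnj2 (7.82 ± 1.49) and Kcnj14 (1.14 ± 0.604). Kcnj14 was thus the least abundant member in all 25 mice, with Kcnj2 higher than it by a median ratio of 5.87.

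Kcnj14 encodes Kir2.4, a Kir2 subunit first described in motor neurons. In WT CNTL mice it measured 0.80, 0.42, 0.52, 0.40 and 0.78 scaled TPM, and in GPx4+/- CNTL mice 0.46, 0.60, 0.48, 0.51 and 0.23. In WT HFHS mice it measured 1.40, 1.37, 1.49, 1.33 and 1.81, and in GPx4+/- HFHS mice 2.21, 1.51, 1.48, 2.10 and 1.86. Each of these HFHS mice lay above every CNTL mouse, the highest of the latter being at 0.80 and the lowest of the former at 1.33. In WT HFHS + Carnosine mice it measured 1.05, 1.42, 2.10, 0.93 and 1.30, also all above the 10 CNTL mice. Those are the control mice of the contrast that chose the gene. The share of all genes with such a gap was not counted, so nothing is read from it.

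**Figure D1:**
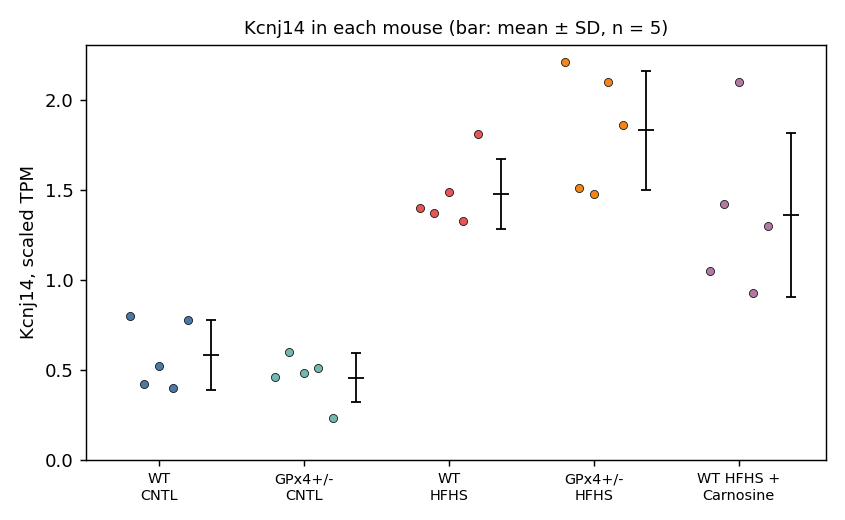
Kcnj14 in scaled TPM (vertical axis, from 0) for each of the 25 mice (points) in the 5 groups, with the mean and SD of each group (n = 5) at the right of its points. The 10 CNTL mice sit between 0.23 and 0.80, and the 15 HFHS mice with or without carnosine between 0.93 and 2.21.

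Group means of Kcnj14 were 0.585 ± 0.195 (SD, n = 5) in WT CNTL and 1.48 ± 0.195 in WT HFHS, 1.36 ± 0.457 in WT HFHS + Carnosine, 0.453 ± 0.137 in GPx4+/- CNTL and 1.83 ± 0.334 in GPx4+/- HFHS. The ratio of HFHS to CNTL means was 3.19 over both genotypes, 2.53 in WT and 4.04 in GPx4+/-. On the scale log2(scaled TPM + 0.5), used for all fits, the difference was 1.09 (standard error 0.10) over both genotypes. That scale understates the change of a gene as low as Kcnj14. As this contrast chose the gene, these values are a description and carry no test. Among all 11983 genes, 0.484% had no overlap between the 10 CNTL and the 10 HFHS mice.

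Markers of other cells were set beside this pattern. Of 12 marker lists, 11 had genes that were tested, all but that of adipocytes. Of their 45 genes 1 rose and 1 fell on HFHS, where 8.33% of all genes were called in either direction. Pdgfra of fibroblasts rose from 8.03 to 9.82 scaled TPM (limma adjusted p = 0.0472). Myh6, the main myosin of the adult mouse ventricle, fell from 9200 to 8160 (limma adjusted p = 0.0314). Neither call held under every setting, Pdgfra having an adjusted p of 0.18 with TPM as deposited and Myh6 one of 0.212 with quantile normalization. The sum of 7 neuronal markers had a median of 2.16 scaled TPM in WT CNTL (1.42 to 6.48) and 2.03 in GPx4+/- CNTL (1.55 to 3.57), against 3.61 in WT HFHS (1.85 to 4.45), 3.12 in GPx4+/- HFHS (2.00 to 4.94) and 3.40 with carnosine (2.24 to 4.92). The ranges overlapped. The motor neuron marker Chat was listed at 0 in 24 of 25 mice, while Dbh of sympathetic neurons, the only neuronal marker abundant enough to be tested, had means of 1.37 on CNTL and 2.33 on HFHS (log2 difference 0.62, standard error 0.24, limma adjusted p = 0.114). The sum of 4 macrophage markers also had higher medians on HFHS, 65.8 and 66.0 against 53.6 and 58.7 on CNTL. Of the 5 smooth muscle markers, Acta2 had means of 61.4 scaled TPM on CNTL and 106 on HFHS, Myh11 of 12.9 and 20.7, Tagln of 30.9 and 52.9 and Cnn1 of 3.05 and 7.03, with overlapping values and limma adjusted p from 0.117 to 0.252, while Des had means of 723 and 714 (adjusted p = 0.838). After group means were subtracted, the correlation of Kcnj14 with the 12 marker sums over the 25 mice ran from -0.12 for ventricular myocytes to 0.38 for pericytes and 0.25 for hepatocytes, with -0.09 for neurons, 0.04 for macrophages and 0.07 for smooth muscle. The smooth muscle sum was mostly Des, with a median of 713 scaled TPM against 68.7 for Acta2 and less for the others. Its correlation therefore says little about Acta2, Myh11, Tagln and Cnn1. Their part in the level of Kcnj14 was not tested.

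Nearly all of Kcnj14 came from 1 transcript. Kcnj14-201 made up 98.3% of the gene's TPM on average over 25 mice, and the shorter Kcnj14-202 was listed above 0.01 scaled TPM only in WT CNTL replicate 1, at 0.33. Without it that mouse, the highest of the CNTL mice, would stand at 0.47 scaled TPM. The depth of the libraries is unknown from TPM, and no count of reads behind these low values can be given.

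For the 7 members the diet contrasts carry no p-value, and their calls there are given as a count alone. The other contrasts were tested with the two-sided tests of limma with Benjamini-Hochberg adjustment over all genes tested. Between genotypes, averaged over diets, none of the 7 members passed, with differences from -0.07 to 0.12 on the log2 scale and an adjusted p of 1.0 for each, where 0.0584% of all genes passed. For Kcnj14 the difference between GPx4+/- and WT was 0.02 (95% confidence interval -0.19 to 0.23). Within CNTL and within HFHS, where 0.0501% of all genes passed in each, none of the other 6 members passed. Kcnj14 differed by -0.18 (-0.48 to 0.12) within CNTL and by 0.23 (-0.07 to 0.53) within HFHS, given as a description, since the diet contrasts that chose the gene rest on the same values. GPx4+/- HFHS mice were higher on average than WT HFHS mice, but the groups overlapped.

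The diet difference in Kcnj14 was larger in GPx4+/- (1.29, standard error 0.14) than in WT (0.88, standard error 0.14). The difference between these differences was 0.41 with an interval of -0.01 to 0.83. Kcnj14 was first by p-value in GPx4+/- alone as well when it was chosen, so this value is a description and carries no test. None of the other 6 members passed the test of this difference, the narrowest interval being that of Kcnj11 (0.06, -0.12 to 0.24) and the widest that of Kcnj3 (-0.23, -0.99 to 0.53). In limma 0.0% of all genes passed, with 856 at an unadjusted p under 0.05.

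Carnosine is the treatment the study set out to examine. Between the 5 WT HFHS mice with and the 5 without it, Kcnj14 differed by -0.12 (95% confidence interval -0.46 to 0.22). This is given as a description, since the mice without carnosine belong to the diet contrast that chose the gene. The carnosine mice spread more widely, from 0.93 to 2.10 scaled TPM, and spanned the whole range of the untreated WT HFHS mice. The other 6 members differed by -0.02 to 0.10 on the log2 scale, with limma adjusted p from 0.954 to 0.994. In this comparison 0.0% of all genes passed, with 504 at an unadjusted p under 0.05. The comparison uses the same WT HFHS mice as the diet contrast.

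Kcnj2 encodes Kir2.1, the main subunit of the background inward rectifier in ventricular myocytes. It measured 11.50, 7.74, 7.33, 7.54 and 9.06 scaled TPM in WT CNTL, and 8.94, 7.11, 11.47, 8.72 and 9.03 in GPx4+/- CNTL. On HFHS it measured 7.49, 5.58, 7.36, 6.25 and 8.00 in WT and 6.05, 8.85, 7.97, 6.40 and 8.39 in GPx4+/-. The diets overlapped, although the 2 highest values were both of CNTL mice. Means were 8.84 ± 1.57 (SD, n = 10) on CNTL and 7.23 ± 1.10 on HFHS, a difference of -0.27 (standard error 0.10) on the log2 scale. With carnosine the mean was 6.94 ± 0.702 (n = 5), against 6.94 ± 0.991 in WT HFHS without it.

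Kcnj12, which encodes the second ventricular Kir2 subunit, Kir2.2, differed less between diets. Its means were 15.4 ± 1.68 scaled TPM on CNTL and 14.3 ± 1.67 on HFHS (n = 10 each), a log2 difference of -0.10 (standard error 0.07), and single mice ran from 11.9 to 18.3. Kcnj12 was the more abundant of the pair in every mouse, with a mean ratio to Kcnj2 between 1.66 in GPx4+/- CNTL and 2.17 in WT HFHS + Carnosine. Kcnj4, the remaining Kir2 gene, had a mean of 0.421 scaled TPM over the 25 mice and was not tested.

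Kcnj14 thus stayed a minor part of Kir2 transcripts. Of the summed TPM of Kcnj2, Kcnj12, Kcnj14 and Kcnj4 it made up 2.24% ± 0.527 (SD, n = 5) in WT CNTL and 6.48% ± 0.571 in WT HFHS, 5.79% ± 1.90 in WT HFHS + Carnosine, 1.87% ± 0.696 in GPx4+/- CNTL and 7.59% ± 1.77 in GPx4+/- HFHS. The sum itself was 25.7 ± 2.75 scaled TPM in WT CNTL and 22.9 ± 2.65 in WT HFHS, with the other groups between them.

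Kcnj3 and Kcnj5, the subunits Kir3.1 and Kir3.4 of the acetylcholine-activated channel, varied widely between mice of the same group. Kcnj3 measured 23.44, 19.49, 39.41, 19.51 and 19.64 scaled TPM in WT CNTL, and 56.03, 26.28, 33.99, 17.75 and 17.17 in GPx4+/- CNTL. Kcnj5 measured 20.49, 24.45, 43.82, 23.73 and 20.33 in WT CNTL, and 39.43, 24.24, 30.83, 22.84 and 22.24 in GPx4+/- CNTL. The same mice stood high in both genes, WT CNTL replicate 3 and GPx4+/- CNTL replicate 1 above all. On HFHS the values were closer together. Kcnj3 lay between 20.3 and 30.8 in WT and between 20.6 and 33.6 in GPx4+/-, and Kcnj5 between 22.1 and 29.8 and between 23.8 and 38.0, with GPx4+/- HFHS replicate 4 the highest in each gene.

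**Figure D2:**
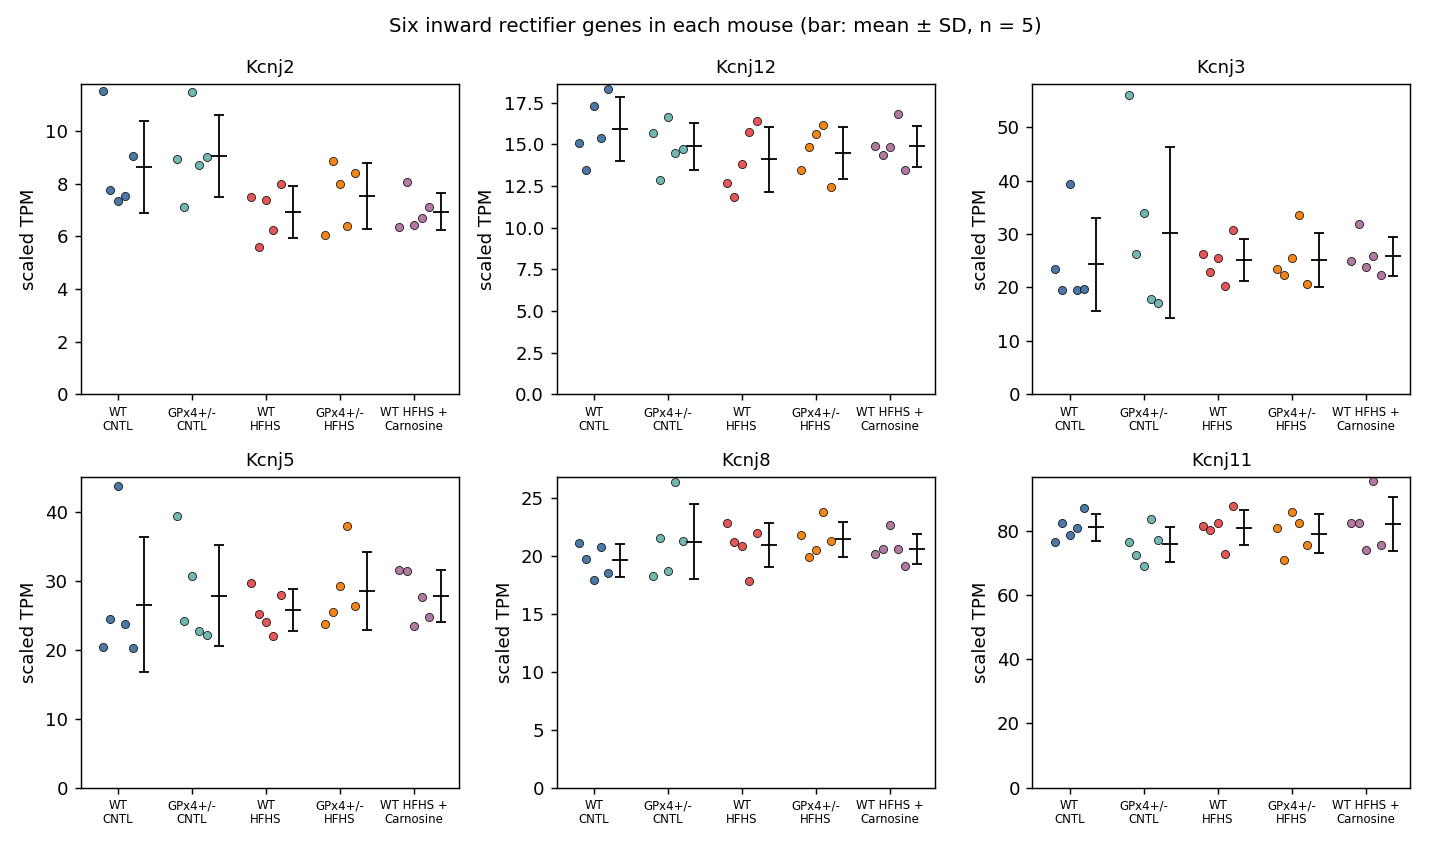
Scaled TPM (vertical axes, from 0) of Kcnj2, Kcnj12, Kcnj3, Kcnj5, Kcnj8 and Kcnj11 in each of the 25 mice (points) of the 5 groups, with group mean and SD (n = 5). The diets overlap for all 6 genes, and Kcnj3 and Kcnj5 are spread most widely in the CNTL groups, with Kcnj3 from 17.2 to 56.0.

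The highest values of this pair were found in mice with high atrial marker sums. In the 5 mice named above Kcnj3 had a median of 33.6 scaled TPM (26.3 to 56.0), against 23.1 (17.2 to 34.0) in the other 20, and Kcnj5 38.0 (24.2 to 43.8) against 24.6 (20.3 to 31.6). The ranges overlapped in both genes. GPx4+/- CNTL replicate 2 had 630 scaled TPM of atrial markers with Kcnj5 at only 24.24, and GPx4+/- CNTL replicate 3 had Kcnj3 at 33.99 with 3.89 of atrial markers. Without the 5 mice the diet difference, a description here as for all members, was 0.17 for Kcnj3 and 0.14 for Kcnj5 on the log2 scale, against -0.03 and 0.03 with them. Sln, the gene of an atrial calcium pump inhibitor, was listed at 0 in 12 of the 25 mice. Other marker sums moved with the pair as well. After group means were subtracted, Kcnj3 had a correlation of 0.662 with the atrial sum, 0.715 with Schwann cells and 0.608 with adipocytes. For Kcnj5 these were 0.699, 0.715 and 0.685, with 0.713 for neurons. Pericyte sums went the other way, at -0.631 and -0.627. GPx4+/- CNTL replicate 3 had the highest Schwann sum of all mice, at 9.00 scaled TPM. The part of atrial tissue or of other cells in these levels was not tested.

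**Figure D3:**
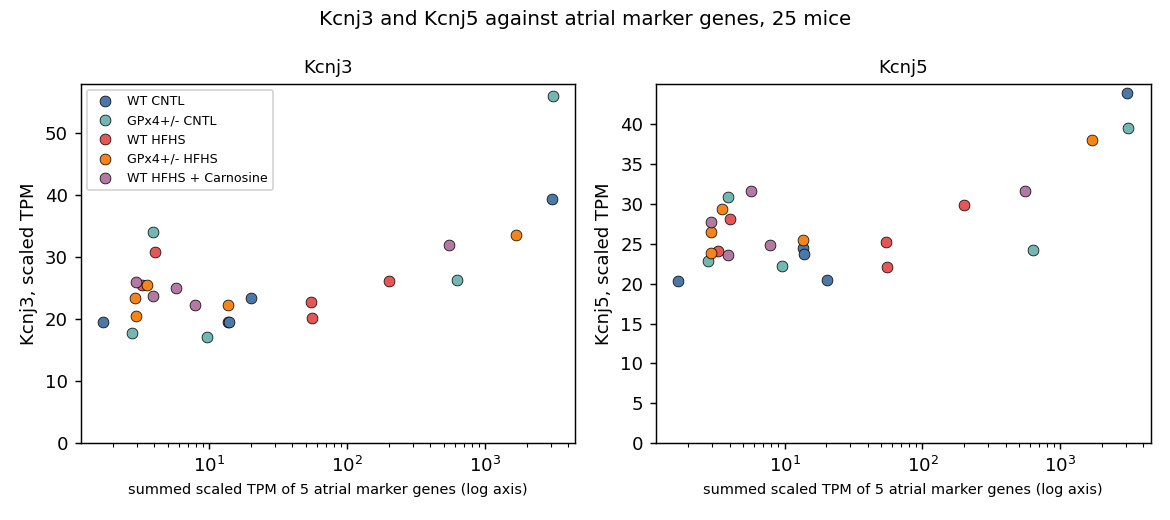
Kcnj3 (left) and Kcnj5 (right) in scaled TPM (vertical axes, from 0) against the summed scaled TPM of 5 atrial marker genes (horizontal log axis), 1 point per mouse, coloured by group. The 3 mice with atrial sums of 1680 to 3090 hold the highest Kcnj5 values, 38.0 to 43.8, and below an atrial sum of 200 both genes vary with no visible trend.

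Kcnj3 and Kcnj5 kept step with each other. Over 25 mice the Pearson correlation of their log2 levels was 0.84 and Spearman's rho 0.77, and over the 20 mice with lower atrial marker sums r was 0.69. Both levels of a point come from the same library and share its scaling. The ratio of Kcnj3 to Kcnj5 had group means between 0.88 in GPx4+/- HFHS and 1.03 in GPx4+/- CNTL. Both genes were made of several transcripts whose shares varied little, Kcnj3-201 giving 55.9% ± 4.27 (SD, n = 25) of Kcnj3 and Kcnj3-203 41.9% ± 5.02, and Kcnj5-201 giving 66.6% ± 3.51 of Kcnj5.

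The ATP-sensitive subunits had the smallest standard errors of the 7 members. Kcnj11 had means of 78.4 ± 5.34 scaled TPM on CNTL and 80.0 ± 5.45 on HFHS (n = 10 each), a log2 difference of 0.03 (standard error 0.04), and ran from 69.1 to 95.5 over all 25 mice. Kcnj8, which encodes Kir6.1 and is typical of vascular smooth muscle and pericytes, had means of 20.4 ± 2.51 and 21.2 ± 1.63, a difference of 0.06 (standard error 0.06). Their ratio stayed between group means of 3.61 in GPx4+/- CNTL and 4.16 in WT CNTL. The leading transcript of Kcnj11 gave 87.8% ± 1.68 of Kcnj11, and Kcnj8-202 gave 77.4% ± 8.67 of Kcnj8, with a range of 63.6% to 99.6% that was widest in WT HFHS.

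**Figure D4:**
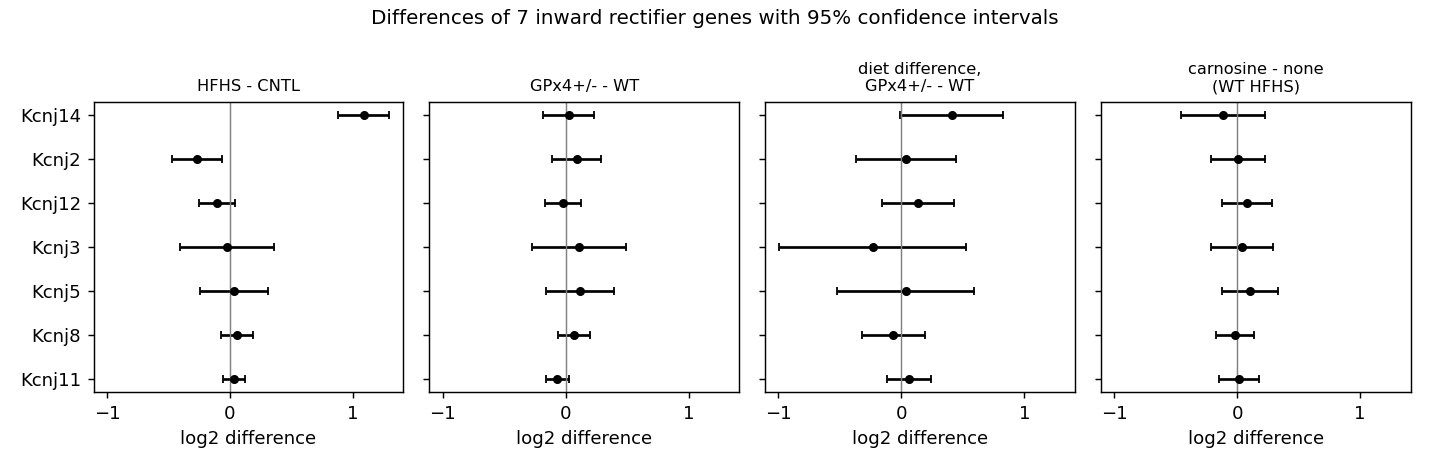
Differences of the 7 genes on the scale log2(scaled TPM + 0.5) (horizontal axes), with 95% confidence intervals from limma, for HFHS minus CNTL over both genotypes, GPx4+/- minus WT over both diets, the diet difference in GPx4+/- minus that in WT, and carnosine minus none in WT HFHS mice. Kcnj14 stands at 1.09 for diet, the contrast that chose it, while in the other 3 panels the intervals of all 7 genes include 0. For Kcnj14 the intervals of the diet difference between genotypes and of carnosine are a description and no test.

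Read side by side, the diet differences of the 7 members had a median of 0.03, against -0.0024 over all genes. With TPM as deposited these medians were -0.022 and -0.052, and the differences of Kcnj5 and Kcnj11 lay below 0 in place of above it. At an adjusted p under 0.05, 1 of the 7 was called in each diet contrast, Kcnj14 in each case, where 8.33% of all genes were called over both genotypes, 1.19% in WT and 3.34% in GPx4+/-. Since the diet contrast chose Kcnj14, nothing is read from that count.

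The remaining 8 Kcnj genes were all below the limit and not tested. Kcnj15 (0.690 scaled TPM over 25 mice) and Kcnj4 (0.421) were the highest, Kcnj13, Kcnj16, Kcnj6 and Kcnj10 had means from 0.0739 to 0.123, and Kcnj1 and Kcnj9 were at 0.0058 and 0.00789. Kcnj15 reached 3.16 in 1 WT HFHS mouse.

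The diet tests of genes other than the members concern lists made with earlier results of these data known. The sulfonylurea receptors are the regulatory subunits that sense ADP beside Kir6. Abcc9, which encodes SUR2, the receptor of ventricular muscle, was the more abundant, at 78.5 ± 8.39 scaled TPM (n = 25), close to Kcnj11. Abcc8, which encodes SUR1, the receptor of pancreatic beta cells and of rodent atria, was at 13.7 ± 2.42. Abcc8 fell on HFHS, from 15.4 ± 2.33 to 12.6 ± 1.52 (n = 10 each), by 0.28 on the log2 scale (standard error 0.07, limma adjusted p = 0.0223). The difference was -0.18 in WT (adjusted p = 0.407) and -0.39 in GPx4+/- (adjusted p = 0.0473), and the difference between these did not pass (-0.21, standard error 0.15, adjusted p = 0.763). Values of the 2 diets overlapped, CNTL mice lying between 12.9 and 21.1 and HFHS mice between 11.0 and 15.9. Without the limit on low levels, when more genes are tested, the adjusted p was 0.0538.

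Abcc8 was also higher in the 5 mice with high atrial marker sums, with a median of 15.9 against 13.0 scaled TPM in the other 20. Without those mice the diet difference in Abcc8 was -0.26, with a limma adjusted p of 0.00766. Abcc9 went the other way, with a median of 73.9 in the 5 mice and 81.0 in the others. Neither relation was particular to atrial markers. After group means were subtracted, Abcc9 had a correlation of -0.728 with the atrial sum, -0.779 with fibroblasts and -0.708 with macrophages, but 0.385 with ventricular myocytes. Abcc8 had 0.656 with the atrial sum and 0.649 with neurons, but -0.616 with endothelial cells. The part of these cells was not tested. Abcc9 did not pass the test between diets (log2 difference -0.15, standard error 0.06, adjusted p = 0.108), but did without the 5 mice (-0.21, adjusted p = 0.031), when only WT CNTL replicate 3 was left out (-0.18, adjusted p = 0.0295), and without mitochondrial transcripts (-0.18, adjusted p = 0.0412).

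Of the 22 genes of the path from muscarinic and adenosine receptors to Kir3, 20 were tested and 0 passed between diets in limma, with 4 at an unadjusted p under 0.05, where 998 of all 11983 genes passed and 2934 had an unadjusted p under 0.05. Their median difference was 0.008 on the log2 scale. The receptors at the head of the path, named here after their values were seen, were the M2 muscarinic receptor gene Chrm2, with means of 21.7 scaled TPM on CNTL and 19.3 on HFHS, and the A1 adenosine receptor gene Adora1, with 6.37 and 6.59. The most abundant, Rgs5, Gnb2 and Gnai2, had log2 differences of 0.03, -0.02 and 0.08.

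Of the 13 genes reported here that anchor or carry cardiac channels, 11 were tested, of which 2 fell on HFHS, where 8.33% of all genes were called in either direction, with a median difference of 0.062. Kcnip2, whose product KChIP2 is a partner of Kv4 channels of the transient outward current and so not of Kir channels, fell from 76.0 ± 8.05 to 50.2 ± 6.74 scaled TPM, by 0.60 on the log2 scale (standard error 0.08, limma adjusted p = 0.000172). The fall was the same in size in WT and GPx4+/-, at -0.60 in each. Of the CNTL mice, only WT CNTL replicate 3, at 57.36, lay within the range of the 10 HFHS mice without carnosine. The 5 carnosine mice lay between 41.09 and 71.54, the highest of them above GPx4+/- CNTL replicate 1 (70.24). Ank2, which encodes the membrane adaptor ankyrin-B, fell from 73.1 ± 4.19 to 64.6 ± 3.62 (by 0.18, standard error 0.04, adjusted p = 0.00777).

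Of 11 genes for the making and use of PIP2, the membrane lipid that all Kir channels need to open, all were tested and 1 passed, a share near the 8.33% of all genes. Pip5k1b, which encodes a kinase that makes PIP2, rose from 9.64 ± 0.912 to 12.4 ± 0.519 scaled TPM (0.36 on the log2 scale, standard error 0.05, limma adjusted p = 0.000122). As with Kcnj14, the 10 CNTL mice (8.05 to 11.5) lay below the 10 HFHS mice (11.9 to 13.5), and the 5 carnosine mice, at 12.1 to 13.4, lay with the latter. The median of the 11 differences was 0.024.

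**Figure D5:**
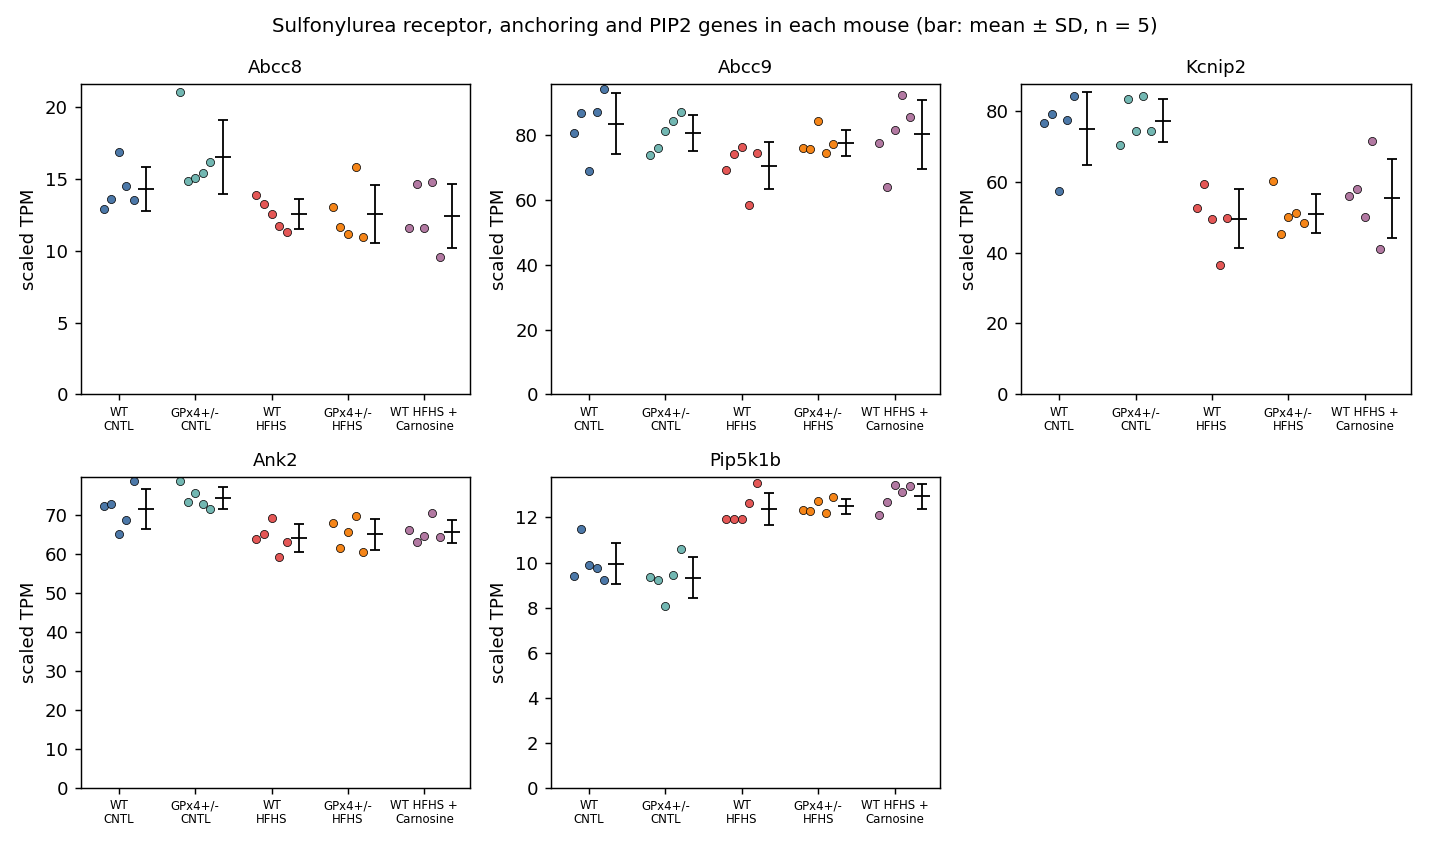
Scaled TPM (vertical axes, from 0) of the sulfonylurea receptor genes Abcc8 and Abcc9 and of Kcnip2, Ank2 and Pip5k1b in each of the 25 mice (points) of the 5 groups, with group mean and SD (n = 5). Kcnip2 falls from a mean of 76.0 on CNTL to 50.2 on HFHS, and for Pip5k1b the highest CNTL mouse, at 11.5, is below the lowest HFHS mouse, at 11.9.

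Within 100 kb of Kcnj14 lie 14 other genes of the table, of which 7 were tested and 0 passed between diets in limma, with 3 at an unadjusted p under 0.05, where 8.33% of all genes passed. The nearest, Grwd1, 441 bases away on the same strand, differed by 0.04 (adjusted p = 0.68), and Cyth2, on the other side, by -0.11 (adjusted p = 0.184). Emp3, at 0.37 (adjusted p = 0.0878), had the largest of the 7 differences.

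By Pearson correlation of log2 levels over the 25 mice, the 5 genes most like Kcnj14 were Lgals1 (r = 0.89), Fabp3 (0.88), Capn3 (0.88), Aplp2 (0.87) and Nkain1 (0.87). Their own diet differences were 0.27 to 0.84 on the log2 scale, and the diets form separate clusters of points. After group means were subtracted, r was 0.62 for Lgals1 and 0.57 for Aplp2, but 0.36, 0.34 and 0.23 for Fabp3, Capn3 and Nkain1. Kcnj3 was most like Psd3 (0.89, and 0.89 within groups), Sbk2 (0.89 and 0.90) and Sort1 (0.87 and 0.89), and Kcnj5 like Sfrp5 (0.86 and 0.92), Cacna1h (0.85 and 0.89) and Kcnj3 itself.

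Kcnj8 was most like Cdh5 (0.72, and 0.72 within groups), the cadherin of endothelial junctions, followed by Cmpk2 and Ptprb (0.72 and 0.70), and Kcnj11 like Sirt2 (0.85), Ldhd (0.81) and St3gal3 (0.79). Kcnj2 was most like Pigm (0.79), D030056L22Rik (0.77) and Iigp1 (0.76), and Zfp97 (0.70) and Brd2 (0.70) were among the 3 genes most like Kcnj12. All these correlations describe 25 libraries that share their scaling.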

How the data were processed

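Left ventricular mRNA of 25 mice was sequenced from stranded libraries. The authors deposited 1 table of TPM for 119215 transcripts, made per the labels with kallisto 0.43.1 (sleuth 0.30.0 is also named) on GRCm38; whether the index was built with its default settings is not given in the sources used here. Columns were matched to mice by library name. Here, 116772 transcripts were matched to GENCODE M21 and summed by gene (2443 were not matched), gene TPM was scaled by median ratios over 11879 genes (factors 0.865 to 1.158), and log2(scaled TPM + 0.5) of the 11983 genes with a mean of at least 1 was fitted with limma 3.58.1 in R 4.3.3 (trend, Benjamini-Hochberg adjustment, call at an adjusted p under 0.05). The 20 mice without carnosine were fitted as 4 groups, and carnosine on 10 WT HFHS mice. The fit was tested on simulated data. TPM holds no counts, so depth is unknown and no count test was run. The members and lists were chosen with earlier results of these data known. A pore stretch, a gene of the anchoring list (left out of its counts) and a correlated gene are not reported here. Named genes were the 7 members, list genes past a test and up to 3 others per list by level, Gpx4, the genes most correlated with a member (5 for Kcnj14, 3 for others) and those within 100 kb of Kcnj14; marker genes, Gm5522, Chrm2 and Adora1 were named after their values were seen. Replicates are separate mice. Alternatives changed the pseudocount, filter, scaling, weights, block, mice and transcript sum.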

Additional observations from a re-analysis of the deposited data

Results flagged for a closer look

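In 35 groups of 5 mice (7 genes in 5 groups), 2 held a mouse far from the others, where chance alone gives about 1 in 20, or 1.75. Both were WT CNTL replicate 3. Its Kcnj3 was 39.41 scaled TPM against 19.5 to 23.4 in the other 4 mice, with a gap of 0.802 of the group's range, and its Kcnj5 was 43.82 against 20.3 to 24.4, with a gap of 0.825. The same mouse had 3050 scaled TPM of atrial markers, while no other WT CNTL mouse exceeded 20.2. Leaving out this mouse turned the sign of the Kcnj5 difference in diet response between genotypes, from 0.04 to -0.16, neither of which passed the test.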

How the results depend on the processing

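The diet difference in Kcnj14 lay between 0.805 (pseudocount 1) and 1.536 (pseudocount 0.1) on the log2 scale, was 1.128 from its leading transcript alone, and ranged from 1.038 to 1.121 when single mice were left out. With a minimum mean of 5 scaled TPM Kcnj14 was not tested and 0 members were called in any of the 3 diet contrasts, and with TPM as deposited 2 were called over both genotypes (Kcnj14 and Kcnj2). In the genotype comparison over both diets 0 members passed under every alternative run. The same held for 0 of the 6 members other than Kcnj14 between genotypes within a diet, for carnosine and for the diet response between genotypes. With TPM as deposited the median of all genes was -0.101 for diet in GPx4+/- and -0.107 for the diet response between genotypes (-0.002 and -0.005 as reported). The share of diet calls higher on HFHS was then 19.9% of 714 over both genotypes and 8.73% of 424 in GPx4+/-, and without mitochondrial transcripts 34.9% of 810 and 48.6% of 222, against 56.2% of 998 and 65.2% of 400. All-gene diet calls ranged from 38 to 405 in WT (142 as reported) and from 222 to 424 in GPx4+/- (400) over the settings, from 36 (without WT CNTL replicate 2) to 202 and from 191 (without GPx4+/- HFHS replicate 5) to 484 with single mice left out, and over both genotypes were 723 without a filter and 876 with the block.

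Signs turned only for differences that did not pass. Diet differences spanned 0 over the settings for Kcnj3 (-0.078 to 0.173), Kcnj5 (-0.02 to 0.136), Kcnj8 (-0.005 to 0.058) and Kcnj11 (-0.022 to 0.033). The genotype difference of Kcnj14 was -0.012 with a pseudocount of 0.1 and -0.045 without the 5 mice with high atrial marker sums, and that of Kcnj3 -0.012 without them. With TPM as deposited the diet response between genotypes was -0.065 for Kcnj2, -0.073 for Kcnj5 and -0.045 for Kcnj11, and the carnosine difference -0.061 for Kcnj2, -0.029 for Kcnj3 and -0.057 for Kcnj11. Without mitochondrial transcripts the carnosine difference was -0.011 for Kcnj2 and -0.004 for Kcnj11, and with array weights -0.035 for Kcnj2, -0.010 for Kcnj3 and -0.023 for Kcnj11, with -0.011 for the Kcnj5 diet response. Without the 5 mice the carnosine difference was -0.046 for Kcnj2 and -0.036 for Kcnj3, and the diet response -0.144 for Kcnj5. With single mice left out, diet differences ranged from -0.108 to 0.102 for Kcnj3 and -0.021 to 0.129 for Kcnj5, and genotype differences ranged from -0.008 to 0.071 for Kcnj14, -0.054 to 0.003 for Kcnj12 and -0.018 to 0.202 for Kcnj3. Carnosine differences ranged from -0.063 to 0.057 for Kcnj2, -0.036 to 0.117 for Kcnj3, -0.074 to 0.014 for Kcnj8 and -0.040 to 0.050 for Kcnj11, and diet responses from -0.065 to 0.124 for Kcnj2, -0.419 to 0.021 for Kcnj3, -0.159 to 0.166 for Kcnj5 and -0.122 to 0.014 for Kcnj8. The causes were not tested.

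Replicate numbers repeat across groups but mark different mice. Deviations of same-numbered mice had a mean correlation of -0.01 (-0.341 to 0.232), and 5 of 25 mice were closest to their own number. With the replicate block the Kcnj14 diet difference stayed 1.086 and no call on a member changed, while all-gene diet calls in WT fell from 142 to 68 and Pdgfra no longer passed (adjusted p = 0.0704).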
